A study of Mus musculus with 4 samples.

Results

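Expressed zinc finger genes that carry a Zfp symbol in the mouse, a group of 207 genes out of 16403 listed in any of the 4 libraries, were followed in peritoneal macrophages with and without Trim24 and with and without the cytokine IL-4. The members were selected on 2 things, a symbol made of Zfp and digits with an optional final letter, and a mean over the 4 libraries of at least 2 FPKM (fragments counted per length of transcript and per size of library, a level corrected for both). Of 369 Zfp-named genes that were listed, 162 fell below that level. Because their mean level was a criterion, levels are given as a description. Zfp36, which encodes tristetraprolin, an mRNA-binding protein of another zinc finger class, was left out, with 29.86, 52.14, 35.25 and 49.19 FPKM in the wild-type untreated, wild-type IL-4, TIF1a-KO untreated and TIF1a-KO IL-4 libraries. Zfp972 was left out by name as well, with 41.39, 51.73, 107.5 and 164.52 FPKM in the same order, which is kept for every run of 4 values below. Zfp972 passed both criteria and was higher in TIF1a-KO in both treatments, so the counts of members called for genotype below depend on its absence. Zfp972 would also have been called higher with IL-4 in TIF1a-KO, and Zfp36 higher with IL-4 in wild-type. The IL-4 counts below therefore depend on these exclusions too.

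The cells came from the peritoneal cavity of C57BL/6 mice at least 4 days after 4% thioglycolate. They adhered for 4 h, were incubated overnight and were starved overnight in 0.5% serum. Then came 6 h with 20 ng/mL IL-4 (Wild-type IL-4 and TIF1a-KO IL-4) or none (Wild-type nontreat and TIF1a-KO nontreat). TIF1a is another name of Trim24. In the knockout a floxed Trim24 gene was deleted by Cre from the LysM (Lyz2) promoter, which is active in myeloid cells such as macrophages and neutrophils, so other cells in the dish would keep the gene, and the controls were littermates without the deletion. Each of the 4 groups is 1 library and nothing states whether mice were pooled, so every test here compares libraries and says nothing of the spread between mice. The tests of library pairs and of the difference of responses cover counting error only. An additive fit leaves 1 residual degree of freedom between libraries, and alternative tests assumed a spread. Trim24 itself stood at 2.55, 1.48, 0.06 and 0.14 FPKM, which matches the labels.

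The libraries held from 11026033 to 11250099 expected reads, of which the 207 members together took 0.463% to 0.50%. The 5 macrophage markers (Adgre1, Itgam, Csf1r, Cd68 and Mertk) summed to between 3521 and 3921 FPKM. Markers of B cells summed to 4.08 to 6.52 FPKM, of T cells to 0.63 to 1.85, of natural killer cells to 0 to 0.21, of neutrophils to 7.05 to 11.59, of eosinophils to 0 to 0.11, of mast cells to 2.0 to 5.83, of mesothelial cells to 2.42 to 4.71 and of fibroblasts to 20.94 to 41.99. The fibroblast sum was lowest in the TIF1a-KO untreated library, and its part in the results below was not tested. The markers S100a9, Ly6g and Ngp of neutrophils, Epx and Ear6 of eosinophils, Ighm of B cells and Trac of T cells were not listed in any library and counted as 0. In bulk RNA, fewer cells of a type and less RNA per cell cannot be told apart.

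Most Zfp genes encode C2H2 zinc finger proteins, in which each finger folds around a zinc ion held by a pair of cysteines and a pair of histidines, and tandem fingers read DNA or, in some members, RNA or other proteins. The largest class in mammals also carries a KRAB box, a short domain that recruits Trim28 (KAP1). Trim28 in turn brings the histone methyltransferase Setdb1 and heterochromatin proteins to the bound site, and many of these factors silence endogenous retroviruses. Trim24, the gene deleted here, is a relative of Trim28 in the TIF1 family. KRAB zinc finger genes arose by repeated duplication and often stand in tandem clusters of similar genes.

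A KRAB A-box was found by sequence in 100 of the members and not in the other 107. The search required at least 16 residues identical to a 37-residue consensus in the translated coding sequence, and members scored either 16 and above or 12 and below. The fingers were counted with the C2H2 spacing pattern, which gave a median of 10 per member and a range of 0 to 36. KRAB members had a median of 11 fingers and members without KRAB a median of 7. One finger of each of 8 members whose levels are described below is shown as DNA from the GENCODE coding sequence on GRCm38, so that the shared element can be seen. The capitals mark the codons of the zinc-binding cysteine, cysteine, histidine and histidine.
Zfp493: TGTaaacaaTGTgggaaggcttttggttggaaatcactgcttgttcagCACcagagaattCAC
Zfp933: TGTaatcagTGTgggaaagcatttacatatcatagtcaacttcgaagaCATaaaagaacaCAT
Zfp87: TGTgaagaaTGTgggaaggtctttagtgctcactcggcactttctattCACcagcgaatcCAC
Zfp809: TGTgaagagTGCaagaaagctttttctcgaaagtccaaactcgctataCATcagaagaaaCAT
Zfp971: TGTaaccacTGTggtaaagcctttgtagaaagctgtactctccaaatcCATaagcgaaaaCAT
Zfp275: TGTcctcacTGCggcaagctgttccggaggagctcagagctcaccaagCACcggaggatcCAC
Zfp467: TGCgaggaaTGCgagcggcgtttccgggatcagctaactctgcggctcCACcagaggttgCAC
Zfp362: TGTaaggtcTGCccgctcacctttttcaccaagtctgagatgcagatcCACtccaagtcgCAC
The first 5 belong to KRAB members and the last 3 to members without KRAB. Each of the 8 stretches is 63 bases long. No finger of this pattern was found in 8 members, among them Zfp609, Zfp503, Zfp703, Zfp395 and Zfp608.

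The members were expressed at low levels. Their median was 4.34 FPKM on the mean over the 4 libraries, against 12.4 FPKM for the 9478 genes of the series that reached 2 FPKM. The KRAB members lay lower, with a median of 3.42 FPKM against 5.76 FPKM for the others, and only 6 of them exceeded 10 FPKM on that mean, compared with 26 of the others. The 3 members just inside the limit of 2 FPKM were Zfp382, Zfp182 and Zfp493, with means of 2.02, 2.05 and 2.06 FPKM. The 3 genes just outside were Zfp949, Zfp661 and Zfp202, with means of 1.98, 1.94 and 1.91 FPKM. At these levels a member had a median of 172 to 183 reads per library, which set its median counting error on a log2 ratio between libraries to between 0.15 and 0.16, against 0.10 for all genes at 2 FPKM.

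The highest member was Zfp207, a partner of the spindle checkpoint protein Bub3, with 53.9, 60.86, 53.92 and 56.43 FPKM. Zfp385a, an RNA-binding protein, followed with 41.43, 34.5, 42.05 and 33.72 FPKM, so that both IL-4 libraries were below both untreated ones. Its relative Zfp385c, with 34.18, 35.36, 26.93 and 27.38 FPKM, showed the other pattern, with both TIF1a-KO libraries below both wild-type ones. Zfp991 had 30.62, 38.34, 27.19 and 34.75 FPKM and was the highest KRAB member. Zfp91, a ubiquitin ligase of the noncanonical NF-kB pathway, was between 25.53 and 29.89 FPKM. Zfp414, with 25.29, 19.97, 26.27 and 20.5 FPKM, was lower in both IL-4 libraries. Zfp710 was between 21.67 and 24.06 FPKM and the KRAB member Zfp655 between 18.58 and 21.74 FPKM. Zfp384 had 24.73, 20.47, 21.97 and 20.61 FPKM, with both IL-4 libraries below both untreated ones. Zfp706 had 18.96, 21.45, 18.39 and 20.15 FPKM, with both IL-4 libraries above both untreated ones. None of these 10 differed by more than 1.5-fold in any library pair.

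**Figure D1:**
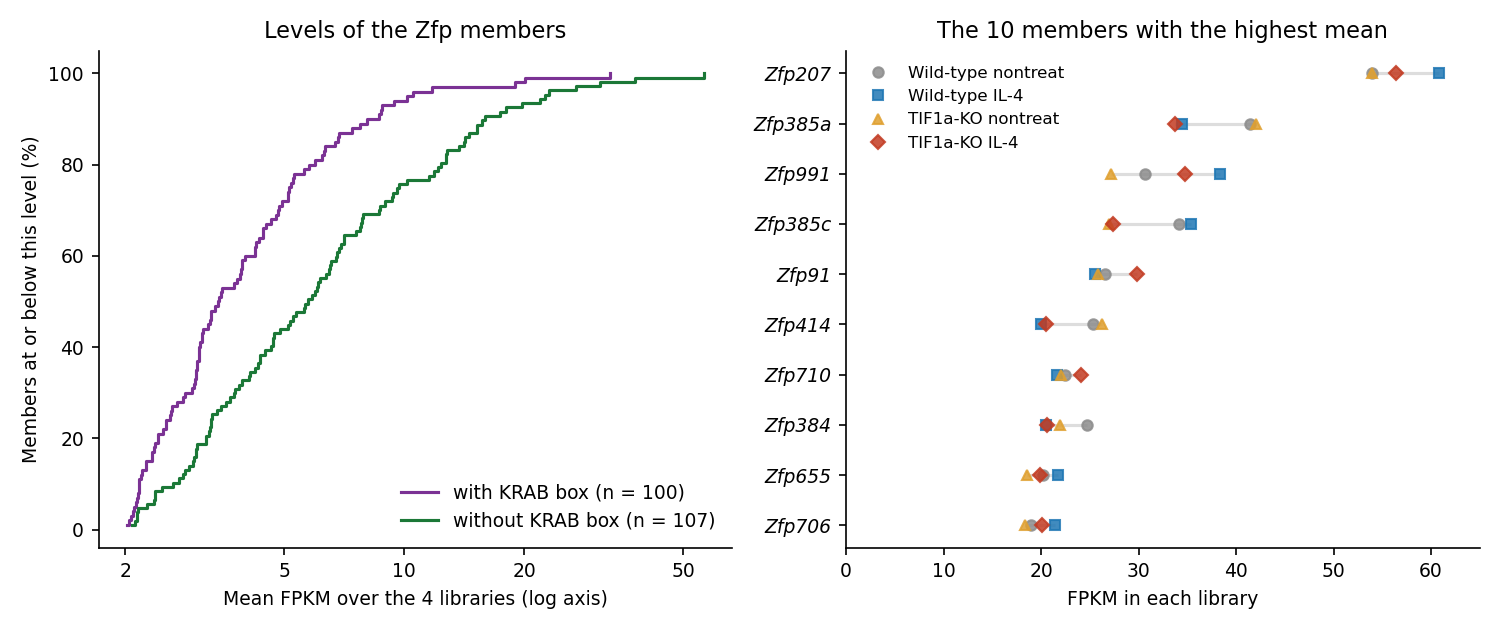
Left, the share of members (%) at or below each mean FPKM (log axis), for the 100 members with a KRAB box and the 107 without. Right, FPKM of the 10 highest members in each of the 4 libraries (1 point per library, grey lines span the range). The KRAB members lie lower, with a median of 3.42 against 5.76 FPKM, and Zfp207 is highest, at 53.9 to 60.86 FPKM.

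Many KRAB members resembled other genes. Among 50-base stretches of their transcripts, a median of 2.22% also stood in a transcript of another gene for KRAB members and 0% for the others, and 34 of the KRAB members but 5 of the others exceeded 10%. An expected count that was not whole, which shows that reads were divided among genes, occurred in 78 of the 100 KRAB members and in 30 of the 107 others. Zfp966 and Zfp967 had the same coding sequence of 1455 bases and the same listed level in every library, so their values are 1 measurement divided between them. Zfp991 shared 82.2% of its stretches, Zfp960 82.7%, Zfp984 54.5% and Zfp971 51.1%, and the levels of these genes are uncertain. Zfp809, Zfp219 and Zfp503 shared none, and Zfp933, Zfp467, Zfp605 and Zfp691 at most 1.05%.

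KRAB members were also closer together. Within 100000 bases of another member lay 61 of the 100 KRAB members and 22 of the 107 others. Chromosome 7 held 39 members (17 KRAB), chromosome 17 held 27 (22 KRAB) and chromosome 13 held 23 (18 KRAB), whereas chromosome 11 held 7 without a KRAB member. Their coding sequences had a median GC content of 41.2%, against 55.3% for the members without KRAB.

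The ratios between libraries depended on transcript length. Before any removal, the log2 ratio of IL-4 to untreated wild-type fell with length across the members (Spearman rho = -0.40 over 207 members), and the ratio of TIF1a-KO to wild-type with IL-4 rose with it (rho = 0.39). The same was seen over the 9478 genes at 2 FPKM (rho = -0.39 and 0.55), which share their libraries. Since the members were long, with a median of 3289 bases against 2699 for all genes, a smooth curve over length was subtracted in each library before the members were compared. After this the rho over members was 0.00 and -0.06 in the same 2 pairs. The size of the correction depended on the gene, with 0.15 for the shortest and -0.69 for the longest member in the wild-type pair on the log2 scale. All log2 ratios below are on the log2(FPKM + 0.1) scale after this removal unless stated otherwise.

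**Figure D2:**
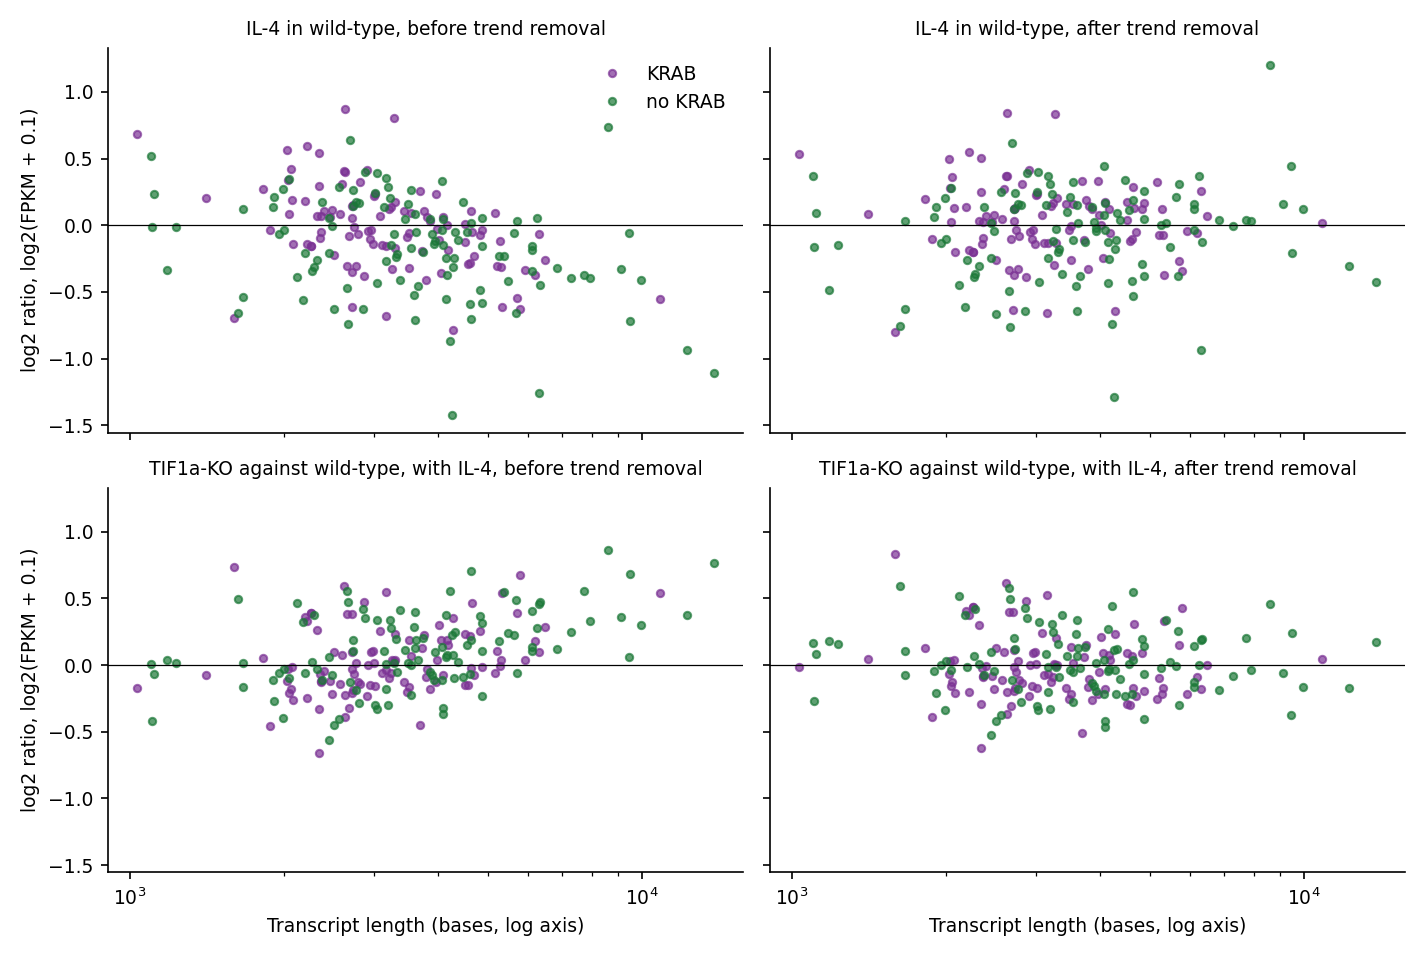
The log2 ratio of each of the 207 members against its transcript length in bases (log axis), before (left) and after (right) removal of the length trend, for IL-4 in wild-type (top) and TIF1a-KO against wild-type with IL-4 (bottom). Each point is 1 gene, and the slope over length seen on the left (rho = -0.40 and 0.39) is absent on the right (0.00 and -0.06).

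The members' median with IL-4 stood close to that of all genes. Their median log2 ratio in the wild-type pair was 0.02, as for all genes at 2 FPKM (0.02), and 98 of the 207 (47.3%) were below 0, against 47.1% of all genes. In the TIF1a-KO pair the median was -0.01, against 0.01 for all genes, and 108 members were below 0. Before removal of the length trend the wild-type median of the members was -0.07. Members over 1.5-fold in either direction made up 8.70% in wild-type and 5.31% in TIF1a-KO, against 13.1% and 11.7% of all genes, whatever their p.

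Single members did differ between the libraries. Calls required more than 1.5-fold together with an adjusted p under 0.05 in the exact binomial test on reads, where the Benjamini-Hochberg adjustment ran over all genes tested. In wild-type 3 members (1.45%) rose with IL-4, against 6.22% of all genes at 2 FPKM, and 13 (6.28%) fell, against 5.85%. In TIF1a-KO 6 members (2.90%) rose, against 6.11% of all genes, and 4 (1.93%) fell, against 4.63%. The members have fewer reads than most genes, so the shares do not rest on equal precision. Both pairs, which have no library in common, called 2 members higher, against 4.6% of all genes, and 4 lower, against 3.33%. Across the members the responses in the 2 genotypes had Pearson's r = 0.60 and Spearman's rho = 0.55 (207 genes, which are not independent), with the same sign in 149 members (72.0%), against r = 0.74 and 76.1% over all genes at 2 FPKM.

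Zfp609, a large nuclear protein that works with Nipbl and the Integrator complex, rose most. It stood at 4.08 and 6.87 FPKM in the wild-type pair and at 4.01 and 12.56 FPKM in the TIF1a-KO pair, with 393, 674, 386 and 1207 reads. Both untreated libraries agreed closely and both IL-4 libraries were higher, the knockout most of all. Its log2 ratio was 1.20 ± 0.09 (counting SE) in wild-type, with an adjusted p = 3.5e-40 by the exact binomial test, and 1.75 ± 0.08 in TIF1a-KO (adjusted p = 1.2e-112). Zfp609 has a long transcript of 8602 bases, and before removal of the length trend these ratios were 0.74 and 1.62.

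Zfp493, a KRAB member with 11 fingers, was the other gene that rose in both pairs, from 1.43 to 2.57 FPKM in wild-type and from 1.62 to 2.63 FPKM in TIF1a-KO. The log2 ratios were 0.84 ± 0.25 and 0.66 ± 0.24, with adjusted p = 0.002 and 0.018 by the exact binomial test. Zfp493 was close to the expression limit, with 52 to 96 reads per library.

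The 4 members that fell in both pairs were Zfp503, Zfp275, Zfp467 and Zfp933. Zfp503, a developmental repressor of the NET family, had 3.55, 1.26, 3.21 and 1.49 FPKM. Both IL-4 libraries thus lay well below both untreated ones, and the log2 ratios were -1.29 ± 0.21 in wild-type and -1.04 ± 0.21 in TIF1a-KO (adjusted p = 4e-10 and 9.3e-07, exact binomial test). Zfp275, an X-linked member with 11 fingers, had 4.28, 1.73, 4.64 and 2.42 FPKM, which gave -0.94 ± 0.15 and -0.84 ± 0.14 (adjusted p = 6.2e-10 and 1.3e-09). Zfp467, known for its part in the choice between fat and bone lineages, had 5.54, 3.54, 5.75 and 2.56 FPKM. Its log2 ratios were -0.67 ± 0.19 and -1.16 ± 0.20, with adjusted p of 0.00045 and 1.9e-07. Zfp933, the only KRAB gene of the 4, had 2.38, 1.34, 3.18 and 1.74 FPKM and log2 ratios of -0.65 ± 0.22 and -0.82 ± 0.20 (adjusted p = 0.0094 and 0.00011). In all 4 of these genes both IL-4 libraries were below both untreated libraries.

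IL-4 signals through Stat6, which binds palindromes of the form TTCNNNNGAA, and other STAT proteins prefer TTCNNNGAA. The RefSeq promoters of the 4 genes on GRCm38.p6, 250 bases before to 50 after the start, are shown on the gene's strand, with the letters TTC and GAA and the bases between them in capitals wherever either motif occurred.
Zfp503, chr14:21989552-21989851, minus strand: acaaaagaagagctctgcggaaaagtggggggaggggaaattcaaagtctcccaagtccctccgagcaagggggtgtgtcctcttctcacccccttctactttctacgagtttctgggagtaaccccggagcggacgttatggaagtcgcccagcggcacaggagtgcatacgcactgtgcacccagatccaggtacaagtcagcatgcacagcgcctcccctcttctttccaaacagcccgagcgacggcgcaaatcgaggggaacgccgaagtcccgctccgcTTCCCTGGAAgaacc
Zfp275, chrX:73342370-73342669, plus strand: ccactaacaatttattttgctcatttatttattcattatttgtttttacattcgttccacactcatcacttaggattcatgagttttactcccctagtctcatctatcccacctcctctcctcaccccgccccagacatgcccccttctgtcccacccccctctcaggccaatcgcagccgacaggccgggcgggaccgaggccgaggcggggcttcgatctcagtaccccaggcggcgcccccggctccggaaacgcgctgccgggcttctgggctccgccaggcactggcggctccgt
Zfp467, chr6:48445041-48445340, minus strand: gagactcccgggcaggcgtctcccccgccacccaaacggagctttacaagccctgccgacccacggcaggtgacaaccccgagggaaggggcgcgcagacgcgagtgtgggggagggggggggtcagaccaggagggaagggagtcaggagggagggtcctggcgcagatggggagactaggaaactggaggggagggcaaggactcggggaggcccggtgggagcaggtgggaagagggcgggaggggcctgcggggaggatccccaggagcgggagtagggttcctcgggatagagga
Zfp933, chr4:147848369-147848668, minus strand: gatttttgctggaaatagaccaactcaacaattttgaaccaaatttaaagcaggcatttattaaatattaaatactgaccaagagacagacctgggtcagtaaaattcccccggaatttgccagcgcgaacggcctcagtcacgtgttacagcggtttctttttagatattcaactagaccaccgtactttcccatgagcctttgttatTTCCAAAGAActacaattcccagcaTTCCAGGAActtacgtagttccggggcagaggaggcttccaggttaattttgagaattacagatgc
Zfp503 held 1 match of the first motif. Zfp933 held 1 of each, whereas neither motif was found in the windows of Zfp275 and Zfp467. Over the 214 promoters of the 172 members that were in the reference, 17 (7.94%) held TTCNNNNGAA and 27 (12.6%) held TTCNNNGAA, against 6.95% and 8.30% of 32851 mouse promoters of the same length. Both motifs read the same on either strand, and a match is a description of the letters only.

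The remaining calls came from 1 genotype. In wild-type, Zfp960 was higher with IL-4, from 1.77 to 3.33 FPKM, with a log2 ratio of 0.84 ± 0.25 (adjusted p = 0.00053, exact binomial test), whereas both TIF1a-KO libraries had 2.52 FPKM. Zfp960 shared most of its sequence with Zfp97. Lower in wild-type were Zfp809, Zfp652, Zfp395, Zfp605, Zfp865, Zfp219, Zfp87, Zfp691 and Zfp579, with log2 ratios between -0.80 and -0.61. Zfp652, a repressor that works with the ETO family, had 9.2, 5.47, 8.94 and 7.65 FPKM, with a log2 ratio of -0.77 ± 0.14 in wild-type and -0.25 ± 0.13 in TIF1a-KO. Zfp395 had 7.13, 3.85, 6.88 and 5.7 FPKM, and Zfp865 had 5.98, 3.61, 6.13 and 4.79 FPKM. In Zfp652, Zfp395 and Zfp865 both untreated libraries were close, the TIF1a-KO IL-4 library was somewhat lower and the wild-type IL-4 library was lowest. Zfp605 had 2.77, 1.69, 2.35 and 2.52 FPKM and Zfp579 had 4.36, 2.93, 4.74 and 3.7 FPKM. Zfp691, with 5.09, 3.48, 3.39 and 3.09 FPKM, stood apart in the wild-type untreated library.

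Higher with IL-4 in TIF1a-KO alone were Zfp362, Zfp523, Zfp142 and Zfp511. Zfp362 had 7.19, 9.5, 5.92 and 12.15 FPKM, with log2 ratios of 0.39 ± 0.13 in wild-type, under the 1.5-fold limit, and 1.0 ± 0.13 in TIF1a-KO (adjusted p = 6.4e-15, exact binomial test). Zfp523, a relative of the promoter-binding factor Zfp143, had 6.05, 7.29, 4.83 and 7.84 FPKM, and its TIF1a-KO ratio was 0.66 ± 0.15. Zfp142, with 36 fingers the richest member, had 4.09, 4.24, 3.43 and 5.15 FPKM and a ratio of 0.65 ± 0.12 in TIF1a-KO. Zfp511 rose from 13.05 to 18.7 FPKM in wild-type and from 12.06 to 18.85 FPKM in TIF1a-KO, so that both genotypes reached nearly the same level. After the length removal its log2 ratios were 0.37 ± 0.15 and 0.61 ± 0.15, the first under the limit.

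**Figure D3:**
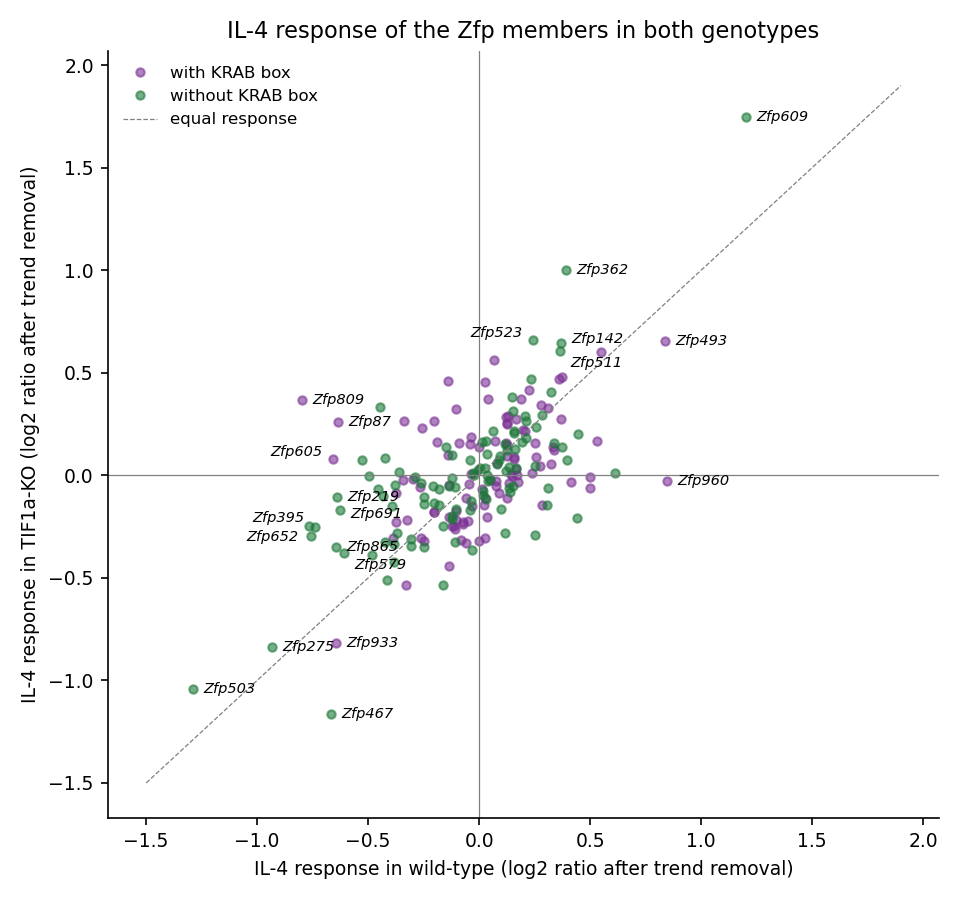
The IL-4 response of each of the 207 members in wild-type (x) and in TIF1a-KO (y), both as log2 ratios after removal of the length trend, coloured by the presence of a KRAB box; named genes were called for IL-4 in at least 1 genotype. Zfp609 stands alone at the upper right (1.20 and 1.75), Zfp503, Zfp275, Zfp467 and Zfp933 at the lower left, and Zfp809 and Zfp87 lie above 0 in TIF1a-KO and below 0 in wild-type.

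Whether the genotypes responded differently to IL-4 was tested directly, as the difference of the 2 log2 ratios of reads against counting error, with Benjamini-Hochberg adjustment. It passed for 3 members (1.45%) at an adjusted p under 0.05 and over 1.5-fold, against 0.742% of all genes at 2 FPKM. Zfp809, the KRAB protein that binds the primer binding site of murine leukaemia viruses and brings Trim28 to them, fell from 7.4 to 4.52 FPKM in wild-type and went from 5.71 to 7.59 FPKM in TIF1a-KO, with 129, 81, 101 and 131 reads. The difference of the responses was 1.13 (95% interval 0.59 to 1.68, adjusted p = 0.0024, normal test on counting error). Zfp87, a KRAB member with 15 fingers, went from 6.51 to 4.23 FPKM in wild-type and from 4.53 to 5.55 FPKM in TIF1a-KO, a difference of 0.91 (0.46 to 1.37, adjusted p = 0.0041). In both genes the rise in TIF1a-KO did not pass the test by itself, with log2 ratios of 0.37 ± 0.19 and 0.26 ± 0.17. For Zfp362 the difference was 0.62 (0.27 to 0.97, adjusted p = 0.016). Zfp609 and Zfp219 differed by 0.56 (0.31 to 0.80) and 0.53 (0.25 to 0.82), with adjusted p = 0.00051 and 0.0083, but under 1.5-fold. Zfp652 and Zfp395, called in wild-type alone, did not pass this test (differences of 0.52 and 0.50, adjusted p = 0.091 and 0.076). For Zfp605, Zfp865, Zfp579, Zfp691, Zfp523, Zfp142 and Zfp511 the difference did not pass either, with adjusted p between 0.18 and 0.78, and their calls in 1 genotype are not shown to differ from the other. Zfp960 gave -1.01 (-1.69 to -0.34) with an adjusted p = 0.056.

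**Figure D4:**
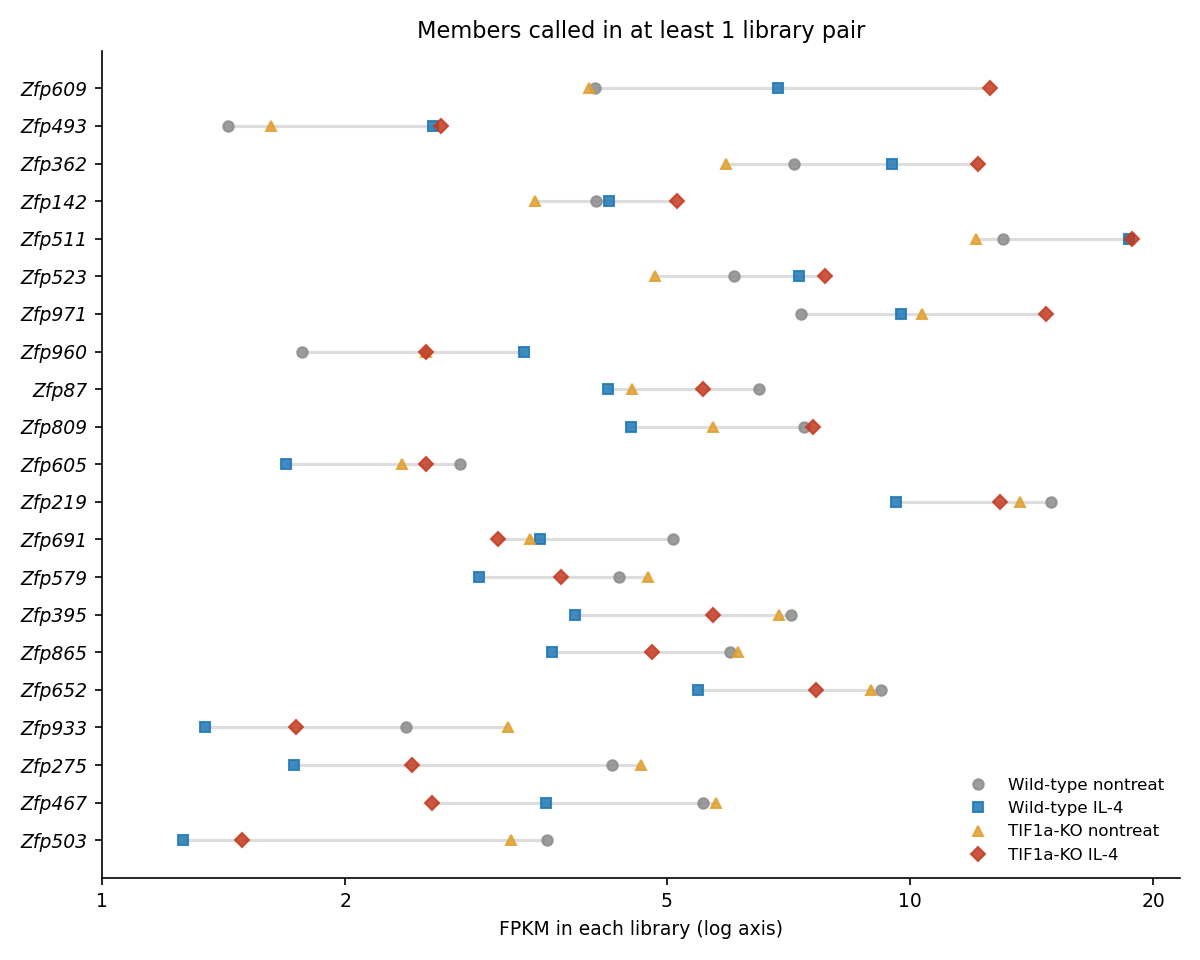
FPKM (log axis) of the 21 members called in at least 1 library pair, ordered by the sum of their 2 IL-4 log2 ratios, with 1 point for each of the 4 libraries. The blue and red points (IL-4) lie right of the grey and yellow ones (untreated) for Zfp609 and Zfp493 and left of them for Zfp503, Zfp275, Zfp467 and Zfp933.

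Loss of Trim24 was followed by smaller differences. In untreated cells no member was called, against 0.834% of all genes at 2 FPKM called higher and 0.528% called lower in TIF1a-KO. At an unadjusted p under 0.05 there were 27 members (13.0%, against 20.9% of all genes), and 5 passed the adjusted p at any size (2.42%, against 8.96%). All 5 of the latter had a fractional expected count. Zfp972, left out of the members, had a log2 ratio of 1.41 ± 0.09 untreated and 1.84 ± 0.07 with IL-4, and would have been called higher in both. The members' median log2 ratio was -0.02, against 0.00 for all genes, and 113 of 207 (54.6%) were below 0. With IL-4, 2 members (0.966%) were higher in TIF1a-KO, against 1.55% of all genes, and none was lower, against 0.359%, whereas 44 had an unadjusted p under 0.05 (21.3%, against 29.9%) and 20 passed the adjusted p at any size (9.66%, against 16.8%). The median was -0.01, against 0.00. Before removal of the length trend the median with IL-4 was 0.04, the opposite sign. No member was called in both genotype pairs, where 0.454% of all genes were higher in both and 0.148% lower in both. The 2 genotype pairs, which have no library in common, had r = 0.24 and rho = 0.26 over the members and the same sign in 119 of 207 (57.5%), against r = 0.33 and 60.2% for all genes.

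Both calls with IL-4 were KRAB genes. Zfp809, described above, had a log2 ratio of 0.83 ± 0.20 between TIF1a-KO and wild-type with IL-4 (adjusted p = 0.0009, exact binomial test) and of -0.33 ± 0.19 without (adjusted p = 0.47). Zfp971 had 7.34, 9.74, 10.36 and 14.75 FPKM, so that both TIF1a-KO libraries were above both wild-type ones. Its log2 ratio was 0.62 ± 0.11 with IL-4 (adjusted p = 3.6e-05) and 0.51 ± 0.13 without (adjusted p = 0.016), the second under the 1.5-fold limit. Zfp971 shared 51.1% of its transcript stretches with other genes, and its reads were divided among them. Zfp385c was lower in TIF1a-KO in both treatments, by log2 ratios of -0.34 untreated and -0.47 with IL-4, each under 1.5-fold with adjusted p = 3.8e-08 and 3.2e-16.

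**Figure D5:**
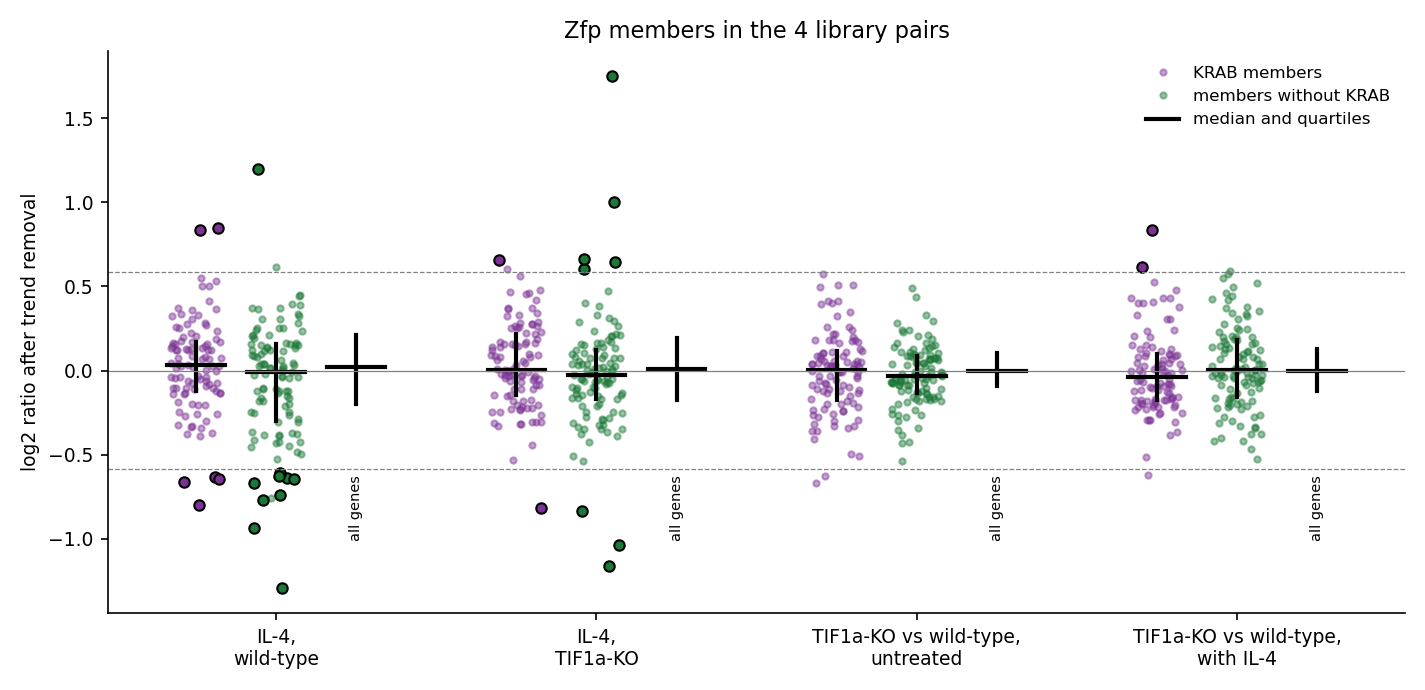
The log2 ratio after removal of the length trend for KRAB members and members without KRAB in the 4 library pairs (1 point per gene, called members outlined in black). Black bars give medians and quartiles, with those of all genes at 2 FPKM at the right of each pair, and dashed lines mark 1.5-fold. All medians lie between -0.04 and 0.03, and the outlined points are 16, 10, 0 and 2 from left to right.

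KRAB and other members were set side by side. In wild-type the median IL-4 log2 ratio was 0.03 for KRAB members and -0.01 for the others, and in TIF1a-KO 0.01 and -0.03. Between genotypes the medians were 0.01 and -0.03 untreated and -0.04 and 0.00 with IL-4. Before removal of the length trend the KRAB median minus that of the others was larger, 0.12 for IL-4 in wild-type and -0.11 for genotype with IL-4, against 0.04 and -0.04 after it. Of the 21 members called in any pair 7 were among the 100 KRAB members and 14 among the 107 others. The share of all genes called in any pair was not computed. With IL-4 in wild-type 2% of KRAB members and 0.935% of the others were called higher, against 6.22% of all genes. Called lower were 4% and 8.41%, against 5.85%. In TIF1a-KO 1% and 4.67% were called higher, against 6.11%, and 1% and 2.8% lower, against 4.63%. KRAB members had the larger median counting error for IL-4 in wild-type, 0.18 against 0.14. The lower quartile in wild-type was -0.12 for KRAB members and -0.30 for the others, against -0.20 for all genes. Members with whole expected counts in every library, 99 in all, had medians of -0.01, 0.01, -0.03 and -0.01 in the 4 pairs in the order of the plot.

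A model with additive effects of genotype and treatment over all 4 libraries (edgeR quasi-likelihood test) leaves 1 degree of freedom, which also holds any difference of responses. Its calls required an adjusted p under 0.05 and no minimum fold, so their counts cannot be set beside those of the library pairs. It called 19 members (9.18%) higher with IL-4, against 19.9% of all genes at 2 FPKM, and 18 (8.70%) lower, against 16.3%. The highest after Zfp609 (log2 change 1.51) and Zfp493 (0.79) were Zfp362 (0.72), the KRAB member Zfp85 (0.60), Zfp142 (0.53) and Zfp511 (0.50). Below Zfp503 (-1.20), Zfp275 (-0.91), Zfp467 (-0.91) and Zfp933 (-0.76) came Zfp865, Zfp652 and Zfp579 (each -0.49). In 16 of the 18 lower members the search found no KRAB box. That is 15% of the 107 without KRAB, near the 16.3% of all genes. The other 2 were 2% of the 100 KRAB members. KRAB members had the larger median counting error, 0.18 against 0.14 for IL-4 in wild-type, so the shares do not rest on equal precision. For genotype it called 1 member (0.483%) higher, Zfp971 (0.49), against 3.79% of all genes, and 3 (1.45%) lower, Zfp992 (-0.43), Zfp385c (-0.41) and Zfp322a (-0.40), against 1.85%. Zfp992 is a KRAB gene, with 8.96, 10.73, 7.12 and 7.84 FPKM. It shared 43% of its transcript stretches with other genes, Zfp991 holding the most, whereas Zfp385c and Zfp322a shared 1.65% and 0.0945%. All 4 genotype calls fell among the 108 members with a fractional expected count, and none among the 99 with whole counts.

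By role, the 11 members of the list for ribosome and RNA functions came first. None was called in any pair, where for IL-4 in wild-type 6.22% of all genes were called higher and 5.85% lower. Their median log2 ratios were 0.13 and 0.01 for IL-4 and -0.05 and -0.09 for genotype. Besides Zfp207 and Zfp385a, the list holds Zfp106, an RNA-binding protein with 18.65, 14.84, 19.22 and 19.1 FPKM, and Zfp598, the ubiquitin ligase that senses collided ribosomes, with 17.74, 15.24, 16.18 and 14.7 FPKM. Zfp106 has a transcript of 9100 bases, and its log2 ratio with IL-4 in wild-type was -0.33 before and 0.16 ± 0.05 after removal of the length trend. Of the 3 ubiquitin and SUMO ligases on the list, Zfp91, Zfp598 and Zfp451, none was called either.

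Of 11 sequence-specific activators and repressors on the list 8 were members. Only 1, Zfp219, was called, lower with IL-4 in wild-type, against 5.85% of all genes. Zfp219, a partner of Sox9 in cartilage, had 14.94, 9.62, 13.67 and 12.92 FPKM, a log2 ratio of -0.64 ± 0.11 with IL-4 in wild-type (adjusted p = 1.5e-08, exact binomial test). Zfp335, a component of H3K4 methyltransferase complexes, had 8.46, 5.59, 7.77 and 5.32 FPKM and log2 ratios of -0.41 and -0.51, under the fold limit, and the additive fit called it lower (-0.46, adjusted p = 3.5e-05, edgeR quasi-likelihood test). Zfp384 and Zfp263 were not called, nor was Zfp410, a specific activator of Chd4, with 6.69, 7.42, 7.63 and 8.47 FPKM. Zfp341, Zfp423 and Zfp521 were not members.

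All 8 co-regulator partners on the list were members. Beside Zfp609 and Zfp652, Zfp703, the relative of Zfp503 in the NET family, had 14.96, 17.29, 15.6 and 21.86 FPKM and log2 ratios of 0.23 ± 0.08 and 0.47 ± 0.08 with IL-4, so the 2 relatives differed in the sign of their ratios. Zfp592, which shares a complex with Zfp687 and Zmynd8, was level at log2 ratios of -0.01 and 0.03. Zfp217, which binds the CoREST complex, had 6.54, 4.11, 8.15 and 5.81 FPKM and ratios of -0.38 and -0.42. The medians of the 8 were -0.02 and 0.05 for IL-4 in wild-type and TIF1a-KO, and 0.03 untreated and 0.28 with IL-4 for genotype. In the last pair 7 of the 8 were above 0, against 49.0% of all genes. There 4 (50%) passed the adjusted p at any size, against 16.8% of all genes, but none passed 1.5-fold. The 8 were long, with a median of 5897 bases, and before removal of the length trend their median in that pair was 0.48. Length and other causes of this difference were not tested.

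Of 8 silencers of retroelements and imprinted genes on the list 4 were members. Zfp809 was called as given above. Zfp445, which protects imprints together with Zfp57, had 9.27, 7.12, 10.7 and 8.07 FPKM and log2 ratios of -0.06 and -0.33 with IL-4. Zfp932, a repressor of endogenous retroviruses, had 8.35, 9.51, 7.71 and 9.42 FPKM, and Zfp961 lay between 3.72 and 4.13 FPKM. Zfp57, Zfp568, Zfp989 and Zfp708 were below the limit.

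The 28 genes of the KRAB co-repressor list are not members. At 2 FPKM 25 of them were measured. Chd4 was called higher with IL-4 in both genotypes (log2 ratios 0.71 and 0.75), against 6.22% and 6.11% of all genes. Dnmt1 was called lower with IL-4 in wild-type (-0.61), against 5.85%, and Resf1 higher in TIF1a-KO with IL-4 (0.59), against 1.55%. At any size 13 and 11 of the 25 passed the adjusted p for IL-4 in wild-type and TIF1a-KO, against 40.9% and 35.9% of all genes. For genotype 2 passed untreated and 7 with IL-4, against 8.96% and 16.8%. Under the fold limit Dnmt1 was also lower with IL-4 in TIF1a-KO (-0.33, adjusted p = 8.9e-10, exact binomial test) and Resf1 higher in untreated TIF1a-KO (0.56, adjusted p = 8.9e-22). Trim28, the central co-repressor, stood at 28.42, 26.32, 25.52 and 25.39 FPKM, with log2 ratios between -0.14 and -0.02 and adjusted p of at least 0.23 in the 4 pairs (exact binomial test). Setdb1 had 15.16, 12.96, 14.19 and 14.53 FPKM, Trim33, the third TIF1 gene, 5.45, 4.29, 5.47 and 5.85 FPKM, and Cbx5, a heterochromatin protein, 2.6, 2.25, 3.01 and 3.04 FPKM. None of these 3 was called.

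Position divided the members further. Stretches of at least 5 members, each within 500000 bases of the next, occurred 6 times, a division chosen after values were seen but made on position only. The 15 KRAB genes on chromosome 13 from Zfp455 to Zfp273 had a median log2 ratio of 0.12 with IL-4 in both genotypes and held both Zfp493 and Zfp87, whose responses in wild-type were 0.84 and -0.63. The 14 KRAB genes on chromosome 17 from Zfp160 to Zfp946 had medians of -0.04 and 0.05 and no called member. On chromosome 6 the 6 members from Zfp282 to Zfp775, between 47877209 and 48621548 on GRCm38, were all below 0 with IL-4 in both genotypes. Their medians were -0.26 and -0.28, with ranges of -0.67 to -0.03 and -1.16 to -0.21. Of all genes at 2 FPKM, 47.1% and 48.2% were below 0. The 6 members were Zfp282, Zfp212, Zfp777, Zfp746, Zfp467 and Zfp775. Of the 6 only Zfp467 was called, and Zfp746 (PARIS, a repressor of PGC-1alpha) had 6.6, 4.79, 6.24 and 4.92 FPKM, with log2 ratios of -0.38 ± 0.13 and -0.34 ± 0.14. The genotype medians of these 6 were -0.02 and -0.09. Among the remaining stretches, Zfp871 to Zfp414 on chromosome 17 had IL-4 medians of 0.18 in wild-type and 0.02 in TIF1a-KO. On chromosome 7 the medians were 0.09 and 0.11 for Zfp84 to Zfp146, and -0.12 and 0.10 for Zfp553 to Zfp646.

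Related zinc finger families were few. Of 26 Zbtb genes, which pair zinc fingers with a BTB domain, 1 was called higher and 2 lower with IL-4 in wild-type, against 6.22% and 5.85% of all genes. In TIF1a-KO 1 was called higher and 1 lower, against 6.11% and 4.63%. The median log2 ratios of the Zbtb genes were -0.04 and -0.08. Both lists are too short for their counts to be read as a difference from these shares. None of 11 Zscan and Zkscan genes, which pair fingers with a SCAN domain, was called in any pair, and their IL-4 medians were -0.06 and -0.04.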

How the data were processed

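Total RNA of peritoneal macrophages was sequenced by BGI on an Illumina HiSeq instrument, and the reads were mapped to GRCm38 (mm10) with Bowtie and quantified per gene with RSEM, whose versions are not given in the sources used here. The deposited values are expected counts, the estimated reads that RSEM assigned to each gene, and the authors' FPKM values, which divide them by transcript length and library total. Genes that a table leaves out count as 0 in that library. Where genes are nearly identical RSEM splits the reads among them, and whether counting used strand is not stated. Gene IDs were matched to symbols of a RefSeq table (16365 of 16403).

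For each library the deviation from the 4-library mean on the log2(FPKM + 0.1) scale was smoothed over log2 transcript length (lowess, fraction 0.3, excluding genes under 200 bases or under a mean of 1 FPKM), and the smooth was subtracted. That scale understates changes of low genes. The 2 libraries of a pair were compared per gene by a two-sided exact binomial test on rounded expected counts, in which the smooth also shifted the expected share. The Benjamini-Hochberg adjustment ran over all genes tested, and calls required more than 1.5-fold and an adjusted p under 0.05, the thresholds of the study. Standard errors cover counting error only. The additive fit used edgeR 4.0.16 (filterByExpr, TMM, quasi-likelihood test, the smooth as offset) in R 4.3.3, with calls at an adjusted p under 0.05 and no fold limit, and DESeq2 1.42.0 was an alternative. Python 3.11.15, scipy 1.17.1, statsmodels 0.14.6 and pandas 2.3.3 were used, and figures were drawn with matplotlib 3.10.9. The pair test and the additive fit were run on simulated counts that held counting error only, which cannot show how they behave with spread between mice. The test of the difference of responses was not run on them. KRAB boxes and fingers were searched in GENCODE M21 coding sequences translated by script, in place of the RefSeq proteins that had been planned. Stretches shared with other genes were counted on the same strand.

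The labels put 1 library in each of 4 groups. The 207 members and the lists were chosen with earlier results of these data known. Named genes were the 10 highest by mean FPKM, those called in 1 direction in both independent pairs for IL-4 or genotype, the 4 highest and 4 lowest called in each pair, up to 4 by mean FPKM of each role list, the 3 genes on either side of the FPKM limit, and Trim24, Trim28, Setdb1, Trim33 and Cbx5. Other genes in the text were named after their values were seen. Alternatives were other pseudocounts, lowess fractions, scalings, fold and FPKM limits, and tests with an assumed spread between replicates.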

Additional observations from a re-analysis of the deposited data

Results flagged for a closer look

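Zfp809, Zfp87 and Zfp362 stood out because their IL-4 responses differed between the TIF1a-KO and wild-type pairs by a direct test of the difference. The differences of the log2 ratios, TIF1a-KO minus wild-type, were 1.13 for Zfp809, 0.91 for Zfp87 and 0.62 for Zfp362. Without the length curve they were 1.07, 0.91 and 0.63. The test covered counting error between 4 single libraries, with 81 to 131 reads per library for Zfp809, 130 to 196 for Zfp87 and 189 to 388 for Zfp362. It was not run with an assumed spread. In the library pairs, an assumed coefficient of variation of 0.1 removed the calls of Zfp809 and Zfp87. The call of Zfp362 with IL-4 in TIF1a-KO was kept at 0.1.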

How the results depend on the processing

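With 1 library per group the spread between mice could not be measured, and a spread assumed in its place took away most calls. With edgeR's exact test and an assumed coefficient of variation of 0.1, the members called for IL-4 went from 16 to 5 in wild-type and from 10 to 5 in TIF1a-KO, and those called for genotype with IL-4 from 2 to 0. Called in this way were Zfp275, Zfp395, Zfp503, Zfp609 and Zfp652 in wild-type and Zfp275, Zfp362, Zfp467, Zfp503 and Zfp609 in TIF1a-KO. With a coefficient of 0.2 there were 0 for IL-4 in wild-type, 1 in TIF1a-KO (Zfp609) and 0 for genotype with IL-4. With 1 library per group nothing could be left out. No paired analysis was possible because each group has 1 library and the labels carry no replicate numbers.

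Without removal of the length trend, Fisher's exact test called 25 members for IL-4 in wild-type and 8 for genotype with IL-4, and TMM scaling without that removal called 7 for the latter. The median log2 ratio of the members was then -0.0671 for IL-4 in wild-type (-0.0303 with TMM) and 0.0376 for genotype with IL-4 (0.0179 with TMM), with 60.9% (57.0% with TMM) and 42.0% of members below 0. At a fold of 2 the counts were 2, 4 and 0 for IL-4 in wild-type, IL-4 in TIF1a-KO and genotype with IL-4. With members of at least 5 FPKM they were 7 and 4 for IL-4, with medians of 0.0909 and 0.0345 and 42.0% below 0 in TIF1a-KO, and with members of at least 1 FPKM 2 were called for genotype untreated and 5 with IL-4. DESeq2 called 5 members for IL-4 and 0 for genotype where the edgeR fit called 37 and 4, and without the length curve that fit called 0 for genotype, while the test of the difference of IL-4 responses called 8 members in place of 3. The causes were not tested. Zfp579 and Zfp691 in wild-type and Zfp142 in TIF1a-KO fell under 1.5-fold without removal of the length trend, and 13 of the 28 called log2 ratios did so at a pseudocount of 1. None of these 28 changed sign under the alternatives run for them. Of all 207 members, 28, 10, 6 and 34 changed sign with removal of the length trend in IL-4 in wild-type, IL-4 in TIF1a-KO, genotype untreated and genotype with IL-4, among them Zfp106 and Zfp91 for IL-4 in wild-type. With Zfp36 and Zfp972 included, an alternative chosen after seeing the data, the counts of calls were 17, 11, 1 and 3.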
